A study of Capra hircus with 20 samples.

Results

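The 10 genes described here control the passage of a cell from G1 into DNA synthesis. They are the D cyclins CCND1, CCND2 and CCND3, cyclin E2 (CCNE2), the kinases CDK4 and CDK6, the CDK inhibitors CDKN1A, CDKN1B and CDKN2C, and the transcription factor E2F1. They were taken by symbol from the mRNA table, and the transcripts of a gene were summed. The 10 genes held 15 of the 43766 transcripts and were 10 of the 20587 gene symbols in the table. All 10 passed the filter, a mean FPKM of 1 or more across the 20 libraries, which left 11432 symbols in all. FPKM, fragments scaled to transcript length and to the mapped reads of the library, is a value per length, so levels of different genes can be set side by side. The cells came from 7-day-old male Jianzhou Daer goats. Intramuscular preadipocytes (IMPA) were isolated with collagenase from the longissimus dorsi, a back muscle, and subcutaneous preadipocytes (SPA) from subcutaneous fat, with no sort of the cells described. IMPA and SPA were harvested at day 0. Intramuscular adipocytes (IMA) and subcutaneous adipocytes (SA) are the same kinds of culture after 3 days in oleic acid. Fetal bovine serum was in the growth medium and in the induction medium, so the mitogens of serum were present in all 4 groups. Each group had 5 libraries, and no goat was named for a replicate number, so p-values measure the spread between these libraries.

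In G1, mitogens raise the D cyclins, which bind CDK4 or CDK6 and start the phosphorylation of the retinoblastoma protein RB1. Phosphorylated RB1 releases E2F factors, E2F1 among them, and these switch on cyclin E and the genes of DNA synthesis. CDKN1A (p21) and CDKN1B (p27) bind cyclin-CDK complexes of G1 and S phase, whereas CDKN2C (p18) belongs to the INK4 family, which binds CDK4 and CDK6 alone. In cultured preadipocyte lines, hormonal induction is known to drive rounds of division before the cells leave the cycle and fill with lipid, and muscle precursors leave the cycle as they turn on contractile genes.

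The study itself saw lipid droplets in both kinds of culture after 3 days, by Oil Red O staining. It also measured less Pref-1, its marker gene of differentiation, than in preadipocytes. Before the results, the labelled cell types were checked here against the RNA of marker genes alone. Adipocyte markers were low in all 4 groups. ADIPOQ, which encodes the fat cell hormone adiponectin, had a mean of 0.197 FPKM in IMPA, 0.214 in IMA, 0.419 in SPA and 0.349 in SA. PLIN1, which coats lipid droplets, had a mean of at most 0.276 FPKM in any group. The highest mean of an adipocyte marker was that of CEBPA, a factor of fat cell differentiation, at 9.23 FPKM in IMPA. CD36, a fatty acid transporter, was at 4.91 FPKM in IMA. CIDEC was at 4.65 FPKM in SPA and 4.35 in SA, against 0.333 in IMPA and 0.318 in IMA. FABP4 was not in the table under that symbol. The 9 adipocyte markers in the table summed to between 10.7 and 13.5 FPKM in any library. Skeletal muscle markers were abundant in the intramuscular cells. The 12 in the table summed to between 3325 and 3817 FPKM in IMPA, 11870 and 12635 in IMA, 7.01 and 23.7 in SPA, and 7.48 and 9.73 in SA. In IMA against IMPA 11 of them were called higher and MYOD1 lower, while in SA against SPA MYF5 was called lower and the other 11 neither. Among all genes tested, 19.9% were called higher and 40.2% lower in IMA against IMPA, and 26.1% and 26% in SA against SPA. MYOG, the myogenic factor of differentiating muscle cells, had a mean of 649 FPKM in IMPA and 736 in IMA, against 0.124 in SPA and 0.0794 in SA. The sum of fibroblast and stromal markers was higher in the subcutaneous cells, though not each marker was. DCN had a mean of 660 FPKM in IMPA and 535 in IMA, against 5441 in SPA and 4120 in SA. COL3A1 was at 4444 FPKM in IMPA and 5242 in IMA, against 4303 in SPA and 4975 in SA. The 7 markers summed to between 4441 and 6986 FPKM in IMPA, 5926 and 6662 in IMA, 11196 and 11588 in SPA, and 10237 and 10544 in SA. The 4 endothelial markers stayed below the filter. Of the 4 immune markers, PTPRC, the marker of blood cells, and CSF1R were close to 0. CD14 had a mean of 5.91 FPKM in IMPA, 9.93 in IMA, 14.45 in SPA and 12.96 in SA. CD68 had a mean of 0.587 FPKM in IMPA, 0.989 in IMA, 2.27 in SPA and 1.23 in SA. In bulk RNA, fewer cells of a type and less RNA per cell cannot be told apart. The study lists reads per library, but no counts per gene were given, so the fragments of a single gene are not known. Library totals ran from 527426 to 596669 FPKM, of which 1 transcript, LNC_010228, held between 19.95% and 29.07%. The share of reads aligned, as the study lists it, did not overlap between the groups in any of the 4 comparisons, so its part in them and that of stage or depot cannot be told apart.

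From before to after induction, some of the 10 genes moved differently in the 2 depots and others did not, as the interaction test further below gives. In intramuscular cells CDKN1A rose 2.27-fold, while E2F1 fell 1.93-fold, CCNE2 1.68-fold, CDKN2C 1.37-fold, CCND1 1.29-fold and CDK4 1.18-fold in mean FPKM. In subcutaneous cells CCNE2 rose 4.54-fold, E2F1 3.34-fold, CDKN2C 2.76-fold, CDK4 1.3-fold and CDKN1A 1.16-fold, and CCND3 fell 1.17-fold. CCNE2, CDK4, CDKN2C and E2F1 passed the test in both depots with opposite directions. CDKN1A passed it in both with the same direction, and CCND2 and CDK6 in neither. By limma, 7 of the 10 genes had an adjusted p under 0.05 in IMA against IMPA, 2 higher and 5 lower, where 60.1% of all genes tested were called, 19.9% higher and 40.2% lower. Of the 10, 5 did not overlap between the groups, where 43.5% of all genes did not. In SA against SPA, 6 genes were called, 5 higher and 1 lower, where 52.1% of all genes were called, 26.1% higher and 26% lower. The same 6 did not overlap, where 38.8% of all genes did not. The number of calls is therefore near the background in both depots. CCNE2, CDKN2C and E2F1 had a log2 difference of at least 1 in SA against SPA, as did 2.49% of all genes tested. With each library rescaled to one total without LNC_010228, the split of all calls in SA against SPA went from 2982 higher and 2975 lower to 2286 and 4140, while the 6 genes were called in the same directions. With the share of aligned reads as a covariate, CDKN1A was the 1 gene still called in IMA against IMPA, and in SA against SPA the calls of CCND3 (adjusted p = 0.154) and CDKN1A (adjusted p = 0.0576) were lost, while CCNE2, CDK4, CDKN2C and E2F1 stayed called and CCND1 was gained.

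**Figure D1:**
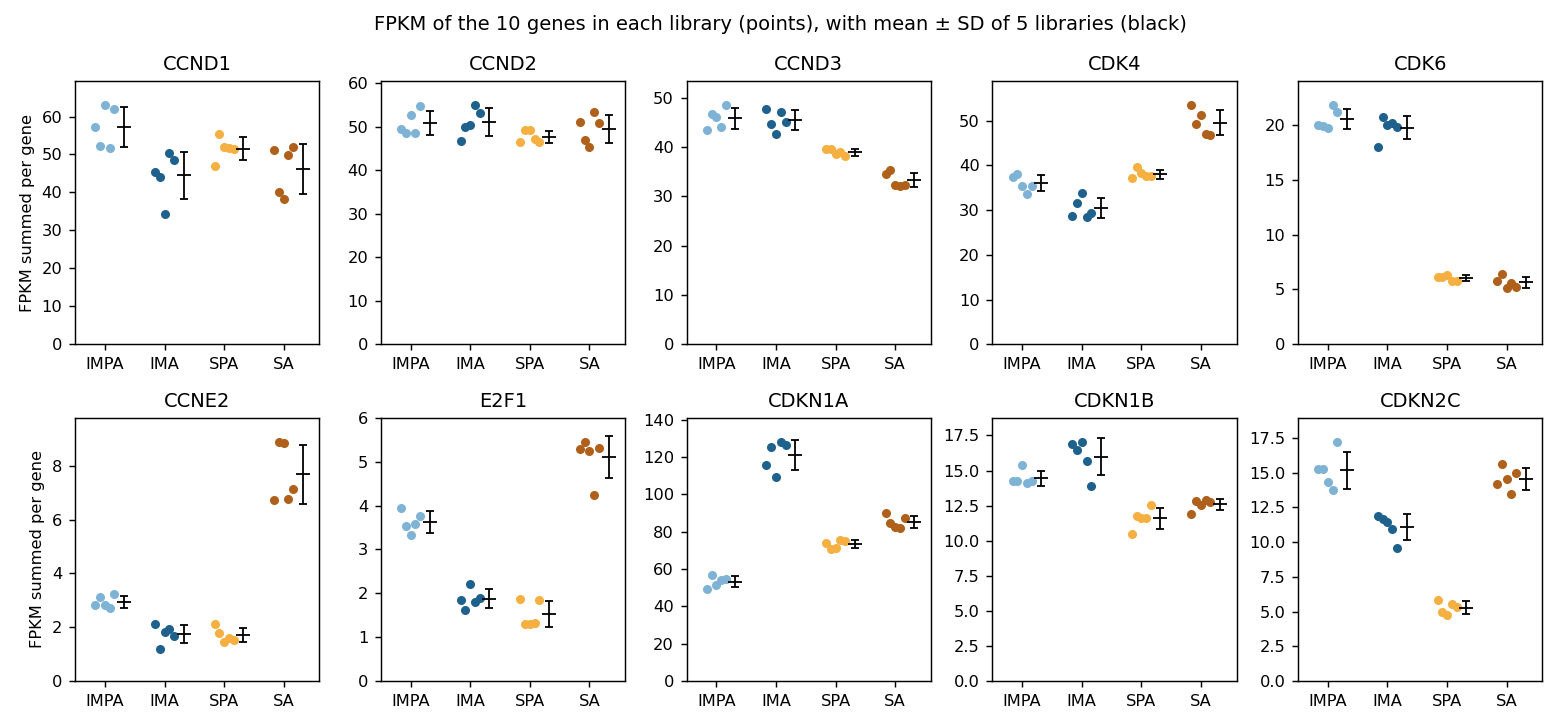
FPKM of each of the 10 genes (y axis, from 0) in the 5 libraries of IMPA, IMA, SPA and SA (x axis), as points, with the mean and SD of each group in black. CDK6 lies between 18 and 21.8 FPKM in intramuscular and between 5.12 and 6.4 FPKM in subcutaneous cells, whereas CCNE2, E2F1 and CDKN2C fall from IMPA to IMA and rise from SPA to SA.

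The D cyclins are the mitogen sensors of the cycle. CCND1 was at 57.2, 52.3, 63, 51.7 and 62 FPKM in IMPA libraries 1 to 5 and at 45.3, 44.1, 34.4, 50.4 and 48.6 FPKM in IMA libraries 1 to 5. IMA library 3 was the lowest, and the highest IMA library lay just under the lowest IMPA library. The log2 difference on the log2(FPKM + 1) scale was -0.36 (SE 0.09, limma adjusted p = 0.00589). In subcutaneous cells CCND1 was at 46.8, 55.4, 51.9, 51.8 and 51.5 FPKM in SPA and at 51.1, 40.1, 38.1, 49.8 and 52 FPKM in SA. SA libraries 2 and 3 lay below the others, and the rest overlapped with SPA. The difference of -0.16 (95% interval -0.35 to 0.03, limma adjusted p = 0.133) did not pass the test, but did without SPA1 and SA5 (-0.24, adjusted p = 0.0477), with the share of aligned reads as a covariate (-0.46, adjusted p = 0.0411) and with the library-size term of Ballgown, an expression analysis package (-0.33, adjusted p = 0.0452).

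CCND2 changed least of the D cyclins. Its means were 50.8 ± 2.78 FPKM (SD, n = 5) in IMPA, 51 ± 3.15 in IMA, 47.7 ± 1.37 in SPA and 49.5 ± 3.19 in SA, and the 20 libraries lay between 45.4 and 55 FPKM. The interval of its log2 difference was -0.10 to 0.11 in intramuscular and -0.04 to 0.15 in subcutaneous cells. CCND3 was at 39.6, 39.6, 38.5, 39 and 38.1 FPKM in SPA and at 34.6, 35.3, 32.3, 32.2 and 32.4 FPKM in SA. All SA libraries lay below all SPA libraries, with a log2 difference of -0.22 (SE 0.03, limma adjusted p = 1.9e-04). CCND3 was at 43.5, 46.8, 46.2, 44.1 and 48.6 FPKM in IMPA and 47.7, 44.8, 42.7, 47.2 and 45 in IMA, where the groups overlapped and the difference was -0.01 (95% interval -0.10 to 0.08). Summed, the D cyclins were at 154 ± 9.19 FPKM in IMPA, 141 ± 9.38 in IMA, 138 ± 4.16 in SPA and 129 ± 9.38 in SA (SD, n = 5). CCND1 held 37.2% ± 1.48 of that sum in IMPA and 31.5% ± 2.58 in IMA, and the libraries of the 2 groups did not overlap in this share. Each of the 3 genes held between 23.8% and 39.6% of the sum in every library.

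CDK4 and CDK6 are the catalytic partners of the D cyclins. CDK4 was at 37.4, 38.1, 35.4, 33.5 and 35.5 FPKM in IMPA and at 28.7, 31.7, 33.7, 28.5 and 29.3 FPKM in IMA. IMA library 3 reached into the IMPA range, and the other IMA libraries lay below it. The log2 difference was -0.24 (SE 0.05, limma adjusted p = 0.00206). In subcutaneous cells CDK4 was at 37.1, 39.6, 38.2, 37.6 and 37.6 FPKM in SPA and at 53.5, 49.2, 51.2, 47.1 and 46.8 FPKM in SA. Every SA library lay above every SPA library, with a log2 difference of 0.37 (SE 0.04, limma adjusted p = 8.6e-06).

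CDK6 was set apart by depot and not by stage. It was at 20.01, 19.9, 19.7, 21.8 and 21.2 FPKM in IMPA, 18, 20.7, 20.03, 20.2 and 19.8 in IMA, 6.13, 6.15, 6.35, 5.79 and 5.74 in SPA and 5.81, 6.4, 5.12, 5.59 and 5.23 in SA. The stages overlapped within each depot, and the depots lay far apart. Its log2 difference was -0.05 in IMA against IMPA (95% interval -0.15 to 0.05) and -0.09 in SA against SPA (95% interval -0.21 to 0.04), neither past the test. With one total per library without LNC_010228, the subcutaneous difference did pass it, at -0.15 (limma adjusted p = 0.0438). CDK6 gave 36.3% ± 2.09 of the CDK4 and CDK6 FPKM in IMPA and 39.4% ± 1.64 in IMA, against 13.7% ± 0.48 in SPA and 10.2% ± 0.91 in SA (SD, n = 5). The sum of both kinases was 56.5 ± 1.23 FPKM in IMPA, 50.1 ± 2.87 in IMA, 44.1 ± 1.09 in SPA and 55.2 ± 2.96 in SA.

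**Figure D2:**
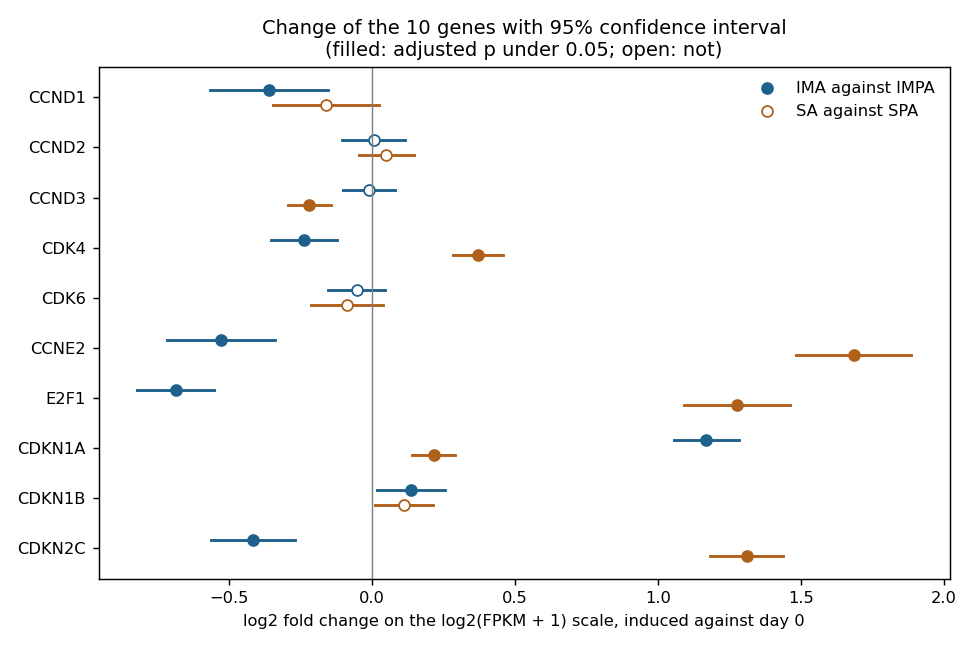
Log2 difference on the log2(FPKM + 1) scale (x axis) of each of the 10 genes (y axis) in IMA against IMPA (blue) and SA against SPA (brown), 5 libraries per group, with 95% confidence intervals as lines. Filled points have a limma adjusted p under 0.05. CCNE2, E2F1, CDKN2C and CDK4 lie on opposite sides of 0 in the 2 depots, and CDKN1A lies to the right of 0 in both.

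CCNE2 and E2F1 act downstream of RB1. Cyclin E2 activates CDK2 at the start of DNA synthesis, and CCNE2 is itself an E2F target. CCNE2 was at 2.82, 3.1, 2.84, 2.7 and 3.24 FPKM in IMPA and at 2.13, 1.19, 1.82, 1.91 and 1.68 FPKM in IMA. IMA library 2 was the lowest, and no IMA library reached an IMPA library. The log2 difference was -0.53 (SE 0.09, limma adjusted p = 2.5e-04). In SPA the gene was at 2.11, 1.79, 1.45, 1.6 and 1.52 FPKM and in SA at 6.74, 8.9, 8.86, 6.76 and 7.15 FPKM. SA libraries 2 and 3 were the highest, and the lowest SA library was still above the highest of the other 15 libraries. The log2 difference was 1.68 (SE 0.09, limma adjusted p = 1.8e-08). The log2(FPKM + 1) scale understates the change of a gene at this level.

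E2F1 was at 3.95, 3.53, 3.32, 3.57 and 3.77 FPKM in IMPA and at 1.85, 1.61, 2.22, 1.8 and 1.9 FPKM in IMA. All IMA libraries lay below all IMPA libraries, with a log2 difference of -0.69 (SE 0.06, limma adjusted p = 2.5e-06). In the subcutaneous cells E2F1 was at 1.87, 1.29, 1.31, 1.32 and 1.84 FPKM in SPA and at 5.29, 5.46, 5.24, 4.25 and 5.31 FPKM in SA. SA library 4 stood below the other SA libraries but above every SPA library, and the log2 difference was 1.28 (SE 0.08, limma adjusted p = 1.1e-07). In IMA and SPA both genes were at their lowest, and there the 2 groups overlapped.

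CDKN1A, an inhibitor of cyclin-CDK complexes and a target of p53 and of MyoD in muscle cells, was the most abundant of the 10 genes in IMA, SPA and SA. It was at 49.2, 56.8, 51.3, 53.9 and 54.8 FPKM in IMPA and at 116, 126, 109, 128 and 126 FPKM in IMA. The lowest IMA library lay well above the highest IMPA library, and the log2 difference was 1.17 (SE 0.05, limma adjusted p = 6.3e-09). A log2 difference of at least 1 was found for 1.91% of all genes tested in this comparison. In SPA it was at 74, 70.7, 71.2, 75.6 and 75.1 FPKM and in SA at 89.8, 84.6, 82.5, 82.1 and 87.2 FPKM. These groups did not overlap either, with a log2 difference of 0.21 (SE 0.03, limma adjusted p = 2.2e-04). MYOD1, which encodes MyoD, fell from a mean of 43.2 FPKM in IMPA to 26.1 in IMA (log2 difference -0.71). The summed skeletal muscle markers rose with CDKN1A from IMPA to IMA and were at most 23.7 FPKM in any subcutaneous library. Their part in the intramuscular change was not tested.

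CDKN1B, the inhibitor that is usually high in resting cells, moved little. It was at 14.2, 14.2, 15.4, 14.1 and 14.2 FPKM in IMPA and at 16.9, 16.5, 17.1, 15.7 and 13.9 FPKM in IMA. IMA library 5 lay below all IMPA libraries and the other IMA libraries above them. The log2 difference of 0.14 (SE 0.05, limma adjusted p = 0.0469) was just past the threshold, and the call was lost without any 1 of 8 of the 10 libraries, with adjusted p between 0.0667 and 0.103. In SPA it was at 10.5, 11.8, 11.6, 11.6 and 12.5 FPKM and in SA at 11.9, 12.9, 12.5, 12.9 and 12.8 FPKM, where SPA library 1 was the lowest of all. That difference of 0.11 (95% interval 0.01 to 0.21, limma adjusted p = 0.0643) did not pass, but did without SPA library 5 (adjusted p = 0.0324) or SA library 1 (adjusted p = 0.047). The ratio of CDKN1A to CDKN1B FPKM was 3.69 ± 0.28 in IMPA and 7.63 ± 1.06 in IMA, against 6.34 ± 0.46 in SPA and 6.78 ± 0.45 in SA (SD, n = 5).

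CDKN2C, the INK4 inhibitor among the 10 and a known E2F target, fell in intramuscular and rose in subcutaneous cells, like CCNE2 and E2F1. It was at 15.3, 15.2, 14.3, 13.8 and 17.2 FPKM in IMPA and at 11.9, 11.7, 11.5, 10.9 and 9.55 FPKM in IMA. IMA library 5 was the lowest, and the groups did not overlap. The log2 difference was -0.42 (SE 0.07, limma adjusted p = 2.3e-04). In SPA it was at 5.86, 4.94, 4.74, 5.56 and 5.29 FPKM and in SA at 14.2, 15.6, 14.6, 13.5 and 15 FPKM. All SA libraries lay far above all SPA libraries, and the log2 difference was 1.31 (SE 0.06, limma adjusted p = 2.8e-09).

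The rest of the inhibitor family was read beside these 3, CDKN1C and CDKN2D having been chosen after their values were seen. CDKN1C (p57), an imprinted relative of CDKN1A and CDKN1B, was higher than any of the 10 genes in intramuscular cells. It was at 294, 334, 355, 333 and 382 FPKM in IMPA and at 498, 429, 438, 469.9 and 462 FPKM in IMA, a log2 difference of 0.44 (limma adjusted p = 1.2e-04). In subcutaneous cells it fell, from 39.2 ± 2.17 FPKM in SPA to 27.1 ± 1.57 in SA (SD, n = 5), a log2 difference of -0.52 (limma adjusted p = 2.3e-06). CDKN2B (p15), an INK4 inhibitor, was at 15.8 ± 1.36 FPKM in IMPA and 26.4 ± 2.59 in IMA, against 0.748 ± 0.17 in SPA and 1.44 ± 0.31 in SA. It rose in both depots, by a log2 difference of 0.71 (limma adjusted p = 6.6e-06) and 0.48 (adjusted p = 7.2e-04). CDKN2D (p19), also of the INK4 family, rose from 2.4 ± 0.126 FPKM to 4.0 ± 0.345 in intramuscular and from 0.665 ± 0.171 to 3.9 ± 0.788 in subcutaneous cells (log2 difference 0.55 and 1.55, limma adjusted p = 6.8e-06 and 1.3e-07). Of the 6 inhibitors, 5 were thus called higher in IMA and 1 lower, while in SA 4 were called higher and 1 lower. Of all genes 19.9% were called higher and 40.2% lower in IMA, and 26.1% and 26% in SA. The count of 5 includes CDKN1B, a call that was lost without any 1 of 8 libraries. CDKN2A was not analysed here.

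**Figure D3:**
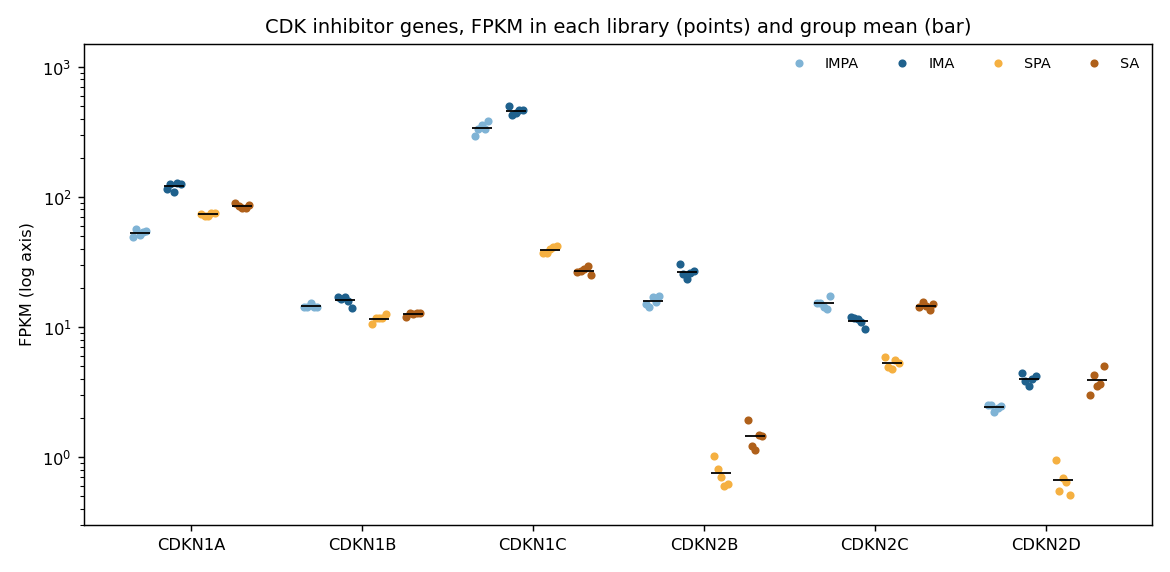
FPKM (log axis) of 6 CDK inhibitor genes in each of the 5 libraries of IMPA, IMA, SPA and SA (points), with the group mean as a bar. CDKN1C and CDKN2B lie above their subcutaneous levels in all intramuscular libraries, and CDKN2C is the inhibitor that is lower in IMA than in IMPA.

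The difference between the 2 depots in the stage change was tested itself, as the interaction of stage and depot over the 20 libraries. It passed for 6 of the 10 genes, 2 in the higher and 4 in the lower direction, where 55.3% of all genes tested passed, 20.7% higher and 34.6% lower. The intramuscular change minus the subcutaneous change was -2.21 (SE 0.13) for CCNE2, -1.96 (SE 0.11) for E2F1 and -1.73 (SE 0.09) for CDKN2C. A value of -1 or lower was found for 3.47% of all genes. CDK4 followed with -0.61 (SE 0.07). In the other direction CDKN1A was at 0.95 (SE 0.06) and CCND3 at 0.21 (SE 0.05), with limma adjusted p of 6.6e-11 and 0.00275. CCND1, CCND2, CDK6 and CDKN1B did not pass, with intervals of -0.48 to 0.08, -0.19 to 0.10, -0.12 to 0.18 and -0.12 to 0.17. CCND1 was called in intramuscular cells but not, without a covariate, in the full set of subcutaneous libraries, and its change is not shown to differ between the depots.

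The depots were also compared at the same stage. Before induction, 8 of the 10 genes were called in IMPA against SPA, 7 higher and 1 lower, where 75.1% of all genes tested were called, 42.3% higher and 32.9% lower. CDK6 was 3.4-fold higher in IMPA (log2 difference 1.61, SE 0.04), CDKN2C 2.87-fold (1.36, SE 0.06), E2F1 2.37-fold (0.88, SE 0.08) and CCNE2 1.73-fold (0.55, SE 0.07). CDKN1A was 1.38-fold lower in IMPA (-0.46, SE 0.04). A log2 difference of at least 1, met by CDK6 and CDKN2C, was found for 8.47% of all genes. CDKN1B (0.29) and CCND3 (0.23) were slightly higher, and these 7 genes did not overlap between the depots, where 63.4% of all genes did not. CCND1 passed narrowly at 0.15 (limma adjusted p = 0.0463). That call was lost without any 1 of 7 of the 10 libraries, with adjusted p between 0.0684 and 0.117. CCND2 (0.09, 95% interval 0.00 to 0.18) and CDK4 (-0.08, 95% interval -0.16 to 0.01) did not pass. CCND2 did with upper-quartile scaling (0.13, limma adjusted p = 0.0249) and without IMPA library 2 (adjusted p = 0.0425) or 4 (adjusted p = 0.0406). CDK4 did with one total per library without LNC_010228 (-0.12, limma adjusted p = 0.00863) and without IMPA library 2 (adjusted p = 0.0354). With the share of aligned reads as a covariate, CDK6 and CDKN2C alone kept their calls. After induction, 8 genes were called in IMA against SA, 4 higher and 4 lower, where 72.4% of all genes were called, 29% higher and 43.4% lower. The same 8 did not overlap, where 58.6% of all genes did not. CDK6 remained 3.51-fold higher in the intramuscular cells, whereas CCNE2 was now 4.4-fold, E2F1 2.72-fold, CDK4 1.63-fold and CDKN2C 1.31-fold lower. The call of CDKN2C was lost with the library-size term of Ballgown (-0.30, adjusted p = 0.0566), while with the share of aligned reads as a covariate all 8 were called. Of all genes, 7.75% had a log2 difference of at least 1 here, like CDK6 (1.65), and 5.15% one of -1 or lower, like CCNE2 (-1.66) and E2F1 (-1.09). CDKN1A was 1.42-fold higher in IMA (log2 difference 0.50, SE 0.05), CCND3 1.36-fold and CDKN1B 1.27-fold. Skeletal muscle markers and the sum of fibroblast and stromal markers differed between the depots at both stages, as given above. Of the 7 fibroblast and stromal markers, 5 were called lower in IMPA against SPA and 6 in IMA against SA. The part of either list in these differences was not tested.

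Ordered by mean FPKM, the groups ran as follows. CCNE2 and E2F1 both ran SA, IMPA, IMA, SPA, with no overlap between SA and IMPA or between IMPA and IMA, and an overlap of IMA with SPA. CDKN2C ran IMPA, SA, IMA, SPA, and its first pair overlapped. CDK4 ran SA, SPA, IMPA, IMA, and SA alone stood clear of its neighbour. For CDKN1A the order was IMA, SA, SPA, IMPA, and no neighbours overlapped. CCND3 ran IMPA, IMA, SPA, SA with an overlap of the intramuscular groups only, and CDK6 ran in the same order with an overlap within each depot. CDKN1B ran IMA, IMPA, SA, SPA, where IMPA and SA alone were apart. CCND1 and CCND2 overlapped between all neighbours.

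Of the 10 genes, CCNE2, CDK6, CCND3 and CDKN2C were represented by more than 1 transcript. The 2 transcripts of CCNE2 exchanged places between libraries while their sum held. XM_018058238.1 was at 2.82, 3.09, 0, 2.69 and 3.09 FPKM in IMPA libraries 1 to 5, and XM_018058239.1 at 0, 0.01, 2.84, 0 and 0.15 FPKM. In IMA the first was at 2.06, 0, 1.75, 1.62 and 0 FPKM and the second at 0.07, 1.19, 0.07, 0.29 and 1.68 FPKM. The first was listed at 0 in 5 of the 20 libraries, and where it was at 0 the second carried the gene. The division between these transcripts thus differed between libraries of the same group, and the sum was used. With XM_018058238.1 alone, the intramuscular change of CCNE2 was -0.68 and no longer passed the test (limma adjusted p = 0.276), and IMPA against SPA did not pass either (adjusted p = 0.209). In SA it was at 6.73, 5.92, 8.81, 6.62 and 7.15 FPKM, above every other group. CDK6 had 3 transcripts with 32.3%, 37.7% and 30.1% of its FPKM over the 20 libraries, and their shares moved between libraries of a group while the sum varied by little. In SA, XM_018047424.1 held between 1.59% and 56.8% of the CDK6 FPKM and in IMA between 31.1% and 39.2%. In CCND3, XM_018038733.1 held 82.4% of the FPKM over the 20 libraries, and in CDKN2C, XM_005678441.3 held 73.6%.

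**Figure D4:**
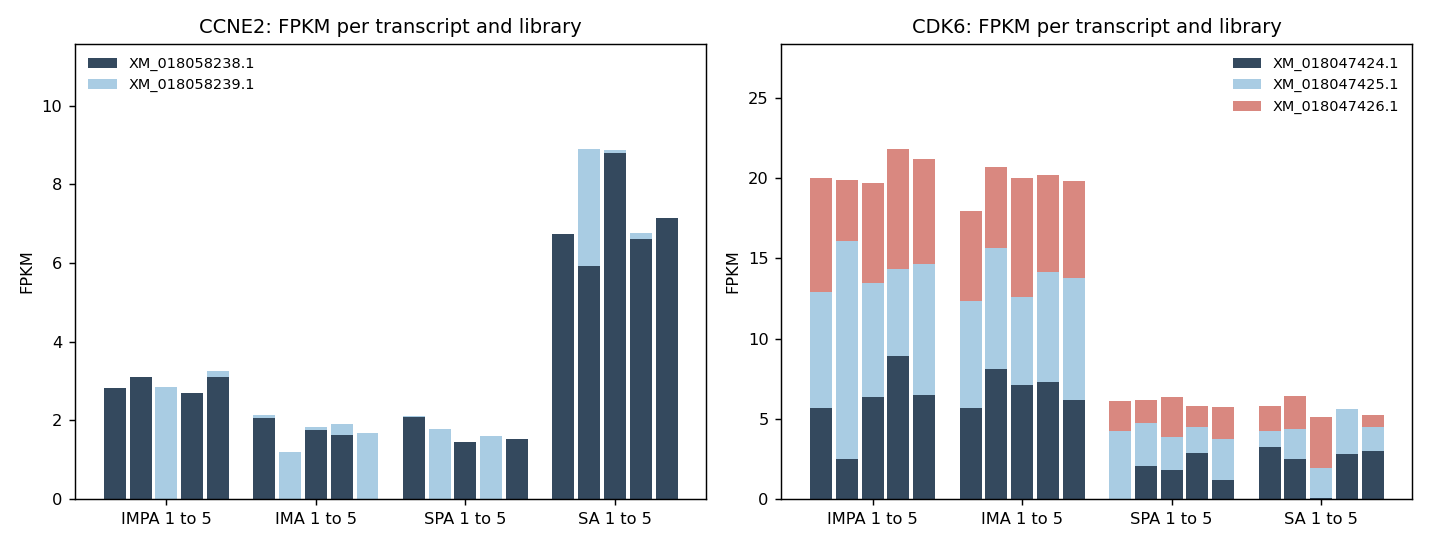
Stacked FPKM (y axis, from 0) of the 2 transcripts of CCNE2 and the 3 transcripts of CDK6 in libraries 1 to 5 of each group (x axis). The bar heights, the sums per gene, stay close within a group, while the colours trade places between libraries, as in IMPA library 3 for CCNE2.

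Other genes of the same pathway were read from lists beside the 10. Of 28 other G1/S regulators, 25 could be tested, of which 10 were called higher, 7 lower and 8 neither in IMA against IMPA, with a median log2 difference of -0.01 against -0.09 for all genes. In SA against SPA 14 were called higher, 2 lower and 9 neither, with a median of 0.24 against -0.01 for all genes. Among all genes, 19.9% were called higher and 40.2% lower in IMA against IMPA, and 26.1% and 26% in SA against SPA. In IMA the DNA-binding partner of the E2Fs, TFDP1, fell from 27.3 ± 0.55 to 17.7 ± 0.888 FPKM (-0.60, limma adjusted p = 1.9e-07) and E2F4, a repressor E2F of resting cells, from 7.39 ± 0.366 to 4.52 ± 0.449 (-0.61, adjusted p = 5.1e-06). Of the rises in SA, those with the smallest p were E2F2, an activator E2F (0.596 ± 0.0845 to 2.73 ± 0.151 FPKM), FBXO5, an inhibitor of the anaphase-promoting complex (1.62 ± 0.203 to 8.04 ± 0.792), and CCNA2, the cyclin of S phase and G2 (7.75 ± 0.648 to 25 ± 2.06). Their log2 differences were 1.22, 1.78 and 1.57. In intramuscular cells E2F2 did not fall with E2F1. Its mean was 5.12 ± 0.363 FPKM in IMPA and 6.27 ± 0.558 in IMA, and these groups overlapped. RB1 itself was at 6.72 ± 0.676 FPKM in IMPA and 8.04 ± 0.717 in IMA (0.23, limma adjusted p = 0.0153), and at 3.17 ± 0.267 in SPA and 3.23 ± 0.487 in SA (adjusted p = 0.91), a gene chosen after its values were seen.

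The S-phase genes that E2F switches on moved in the same directions as CCNE2 and E2F1. Of 22, 21 could be tested. In IMA against IMPA 20 of them were called lower, and GMNN, the licensing inhibitor geminin, was the 1 not called (0.01, adjusted p = 0.931). Their median was -0.55 against -0.09 for all genes, of which 40.2% were called lower. In SA against SPA all 21 were called higher with a median of 1.08, against -0.01 for all genes, of which 26.1% were called higher. MCM2 and MCM4, subunits of the replicative helicase, fell from 6.92 ± 0.50 to 3.1 ± 0.171 and from 12.2 ± 0.774 to 6.14 ± 0.646 FPKM in intramuscular cells. In subcutaneous cells RRM2, a subunit of ribonucleotide reductase, rose from 10.7 ± 0.358 to 80.4 ± 5.06 FPKM (2.80, limma adjusted p = 3.1e-12). TYMS and TK1, which make thymidine nucleotides, rose from 21.3 ± 1.11 to 66.9 ± 3.08 and from 6.53 ± 0.29 to 21.5 ± 1.54 FPKM.

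Genes of G2 and mitosis did not follow in the same measure in the intramuscular cells. Of 16, 15 could be tested, of which 8 were called lower and 7 neither in IMA, with a median of -0.18. All 15 were called higher in SA with a median of 1.58. Among all genes, 40.2% were called lower in IMA and 26.1% higher in SA, with medians of -0.09 and -0.01. CDK1, the kinase of mitotic entry, was at 16.5, 18.6, 17.7, 14.8 and 18 FPKM in IMPA and at 18.9, 18.6, 18.7, 17.3 and 17.5 FPKM in IMA, where the groups overlapped (0.09, 95% interval -0.04 to 0.21). In SPA it was at 8.56, 7.03, 7.38, 8.27 and 8.1 FPKM and in SA at 40.6, 41, 39.6, 37.1 and 41.4 FPKM, a log2 difference of 2.21 (limma adjusted p = 3.6e-11). MKI67, the usual marker of cycling cells, went from 2.43 ± 0.461 to 1.59 ± 0.284 FPKM in intramuscular (-0.40, adjusted p = 0.0047) and from 0.913 ± 0.153 to 2.96 ± 0.512 FPKM in subcutaneous cells (1.04, adjusted p = 1.2e-06). CDC20, an activator of the anaphase-promoting complex, fell in IMA (-0.56), as did the kinetochore motor CENPE (-0.20). The spindle protein NUSAP1 (2.35) and the topoisomerase TOP2A (2.29) rose in SA. Cell-cycle genes and muscle genes were known to stand out in earlier results of these data, so these lists are no independent evidence of their direction.

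**Figure D5:**
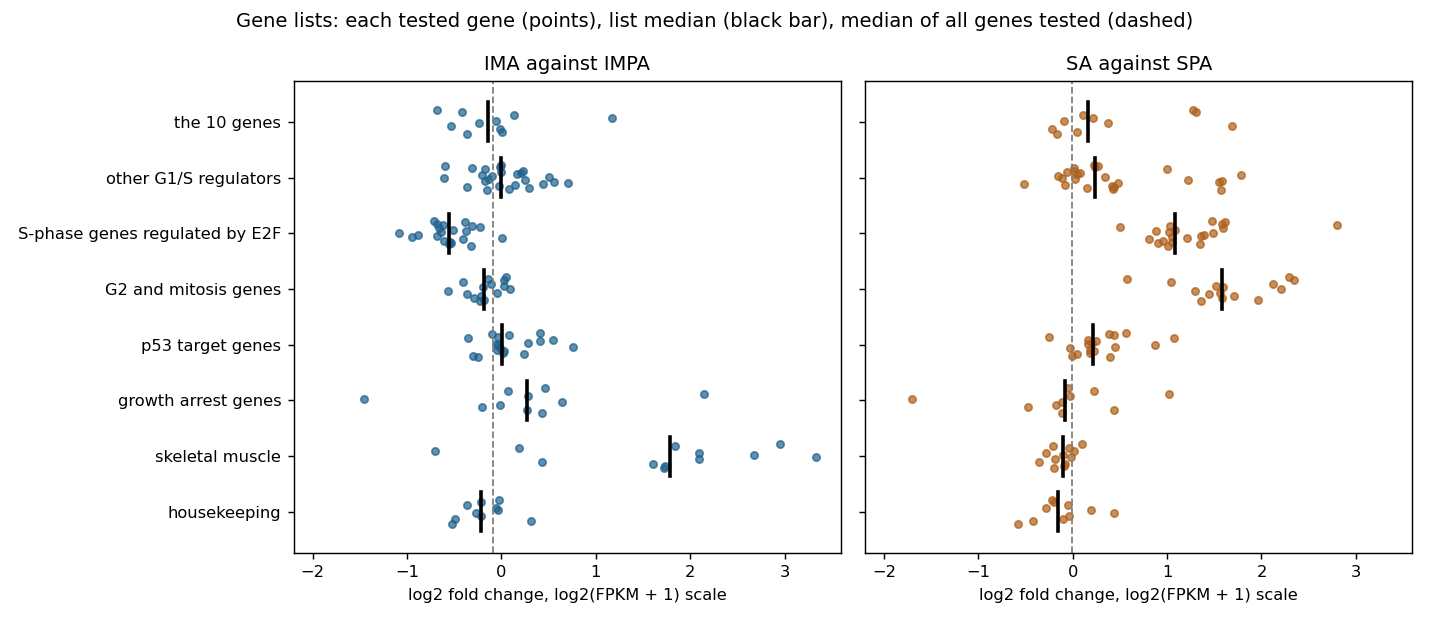
Log2 difference on the log2(FPKM + 1) scale (x axis) of every tested gene (points) of 8 gene lists (y axis) in IMA against IMPA (left) and SA against SPA (right), with the list median as a black bar and the median of all genes as a dashed line. The S-phase genes lie left of 0 in intramuscular cells, GMNN excepted, and right of 0 in subcutaneous cells, and the skeletal muscle genes lie mostly above 1.5 in intramuscular cells alone.

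CDKN1A was also read beside other targets of p53, the factor that halts the cycle after DNA damage. Of 18, 5 were called higher, 3 lower and 10 neither in IMA against IMPA, and 13, 1 and 4 in SA against SPA. Their medians were 0.00 and 0.21, against -0.09 and -0.01 for all genes. The shares of all genes called were 19.9% higher and 40.2% lower in IMA, and 26.1% and 26% in SA. MDM2, the ubiquitin ligase of p53 and one of its targets, was at 16.2 ± 0.357 FPKM in IMPA and 15.9 ± 1.25 in IMA (-0.03, limma adjusted p = 0.585), and rose from 10.3 ± 0.309 in SPA to 19.8 ± 0.90 in SA (0.88, adjusted p = 3.7e-09). GADD45A rose in IMA (0.76), with SESN1 (0.55) and RRM2B (0.41), and SESN2 (1.07) and TP53INP1 (0.44) rose in SA. They were named by the smallest p in each depot, which does not make a rise particular to it. From SPA to SA the mean of GADD45A went from 28.3 to 39.2 FPKM and that of RRM2B from 4.14 to 5.1, both without overlap. SESN1 went from 1.19 to 1.45 there, with overlap. From IMPA to IMA, SESN2 fell from 9.31 to 7.09 FPKM without overlap, and TP53INP1 went from 38.6 to 41 with overlap. Of 10 growth arrest genes tested, 6 were called higher and 1 lower in IMA (median 0.27), and 3 higher and 2 lower in SA (median -0.08). PDK4, a kinase that turns the cell from glucose to fat oxidation, rose in both depots (2.15 in IMA and 1.02 in SA), while GAS1, a growth arrest gene of quiescent fibroblasts, was lower in both (-1.46 and -1.70). BTG1 (0.43) and GADD45B (0.64) rose in IMA, and CCNG2 (0.44) rose in SA. CCNG2 also went from a mean of 16.8 FPKM in IMPA to 20.4 in IMA, without overlap. BTG1 went from 122 FPKM in SPA to 113 in SA and GADD45B from 20 to 18.3, both with overlap.

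For each gene the nearest profiles over the 20 libraries were found among all genes tested, by the root mean square difference of the centred log2(FPKM + 1) values. CCNE2 lay nearest to PCNA, the sliding clamp of DNA polymerases (0.12), and to TYMS (0.13). CDKN2C lay nearest to CCNB1, cyclin B1 of mitosis (0.11), and to KPNA2 (0.13), and E2F1 to DNAJC9 and LOC102182181 (both 0.14). CDKN1A lay nearest to GALK2 and LOC102173269 (both 0.13), and CDK6 to GRIK1 and HOMER1 (both 0.09). The nearest of the others were RRP12 and DENND4B for CCND1, VAPB and GGA2 for CCND2, LATS2 and SLC25A24 for CCND3, FAM3C and CMTM6 for CDK4, and ATP5H and LOC102181107 for CDKN1B, all within 0.12. Libraries of a group share stage and depot, so these distances describe the group pattern for the most part.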

How the data were processed

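RNA of 20 goat cell cultures, 5 per group, was sequenced by the authors in strand-specific libraries, and reads were aligned with HISAT2 2.0.4. The submitters' processing notes also list GATK 2.6-5. The authors deposited FPKM per transcript, calculated with StringTie 1.3.1, Ballgown and Cuffdiff, in 3 tables (annotated lncRNAs, new lncRNAs and mRNAs). The study lists reads per library, but counts per gene were not analysed here, and the precision of a single value is therefore not known from depth. Transcripts were summed by symbol, and all 10 gene IDs matched RefSeq names. Of the 20587 symbols, 6 held more than 1 gene ID, none of them among the 10. Genes with a mean of at least 1 FPKM were tested on log2(FPKM + 1) with limma 3.58.1 (R 4.3.3), moderated with a variance trend, in fits of 10 libraries, and in 1 fit of 20 for the interaction. Adjustment of p-values was that of Benjamini and Hochberg, over all 11432 genes, and an adjusted p under 0.05 is a call. Groups came from the sample titles. The members and gene lists were chosen with earlier results of these data known. Genes named from a list are up to 3 with the smallest p among those called with no overlap, besides MKI67, CDK1 and MYOG. A gene that this rule names is not reported here. CDKN1C, CDKN2D, RB1, GMNN and single marker genes were named after their values were seen. On simulated data with the intramuscular spread, 92.5%, 97% and 100% of genes with a log2 change of 0.5, 1 and 2 were called, with 14 of 11232 unchanged genes. With the subcutaneous spread it was 94%, 100% and 100%, with 19, and for the interaction 77.6%, 97% and 98.5%, with 15. Few genes were changed there, all upward, and the noise was independent between genes. In the data 60.1% of genes were called in IMA against IMPA, so these shares may differ. Alternatives were a pseudocount of 0.1, a minimum mean of 0.1 FPKM or none, upper-quartile scaling, one total per library without LNC_010228, all 4 groups in the fit, a replicate block, the study's share of aligned reads or Ballgown's library-size term as a covariate, no variance trend, the most abundant transcript, and libraries left out, among them SPA1 and SA5, the subcutaneous libraries that lost the smallest share of reads in filtering. The sequences of the genes were not used here. Values and figures were computed with Python 3.11.15, numpy 2.4.6, pandas 2.3.3 and matplotlib 3.10.9.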

Additional observations from a re-analysis of the deposited data

Results flagged for a closer look

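Of the 40 sets of 5 libraries, 10 genes in 4 groups, 2 held a library that stood apart by the ratio of its gap to the range of its group (critical value 0.71), and chance gives about 1 in 20. CDKN1B was at 15.4 FPKM in IMPA library 3 against 14.1 to 14.2 in the other 4, with a ratio of 0.894. E2F1 was at 4.25 FPKM in SA library 4 against 5.24 to 5.46 in the other 4, with a ratio of 0.819.

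For 6 of the 10 genes the stage change differed between the depots by the interaction in limma, as it did for 55.3% of all genes tested. The intramuscular minus the subcutaneous change was -2.21 for CCNE2 (adjusted p = 6.8e-12), -1.96 for E2F1 (2.0e-12), -1.73 for CDKN2C (9.5e-13), -0.61 for CDK4 (1.6e-07), 0.95 for CDKN1A (6.6e-11) and 0.21 for CCND3 (0.00275). The call of CCND3 was lost with the share of aligned reads as a covariate, with Ballgown's library-size term, and with the most abundant transcript.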

How the results depend on the processing

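A pseudocount of 0.1, a minimum mean of 0.1 FPKM and the fit of all 4 groups changed no call of the 10 genes other than CCND1 in IMPA against SPA, which was lost with all 4 groups (adjusted p = 0.168). The share of aligned reads as a covariate moved all genes called to 776 in IMA against IMPA, 3819 in SA against SPA, 2418 in IMPA against SPA and 2123 in the interaction, and the members called to 1 in IMA against IMPA and 2 in IMPA against SPA. With the ordinary linear model and Ballgown's library-size term, all genes called were 1397 in IMA against IMPA, 1015 in IMPA against SPA and 3802 in the interaction, and 1 member was called in each of the first 2. The cause was not tested.

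Signs turned only for differences near 0 or under these covariates. In IMA against IMPA they were CCND2 at -0.016 with one total without LNC_010228, CCND3 at 0.0029 with upper-quartile scaling and CDK6 at 0.12 with Ballgown's term. In SA against SPA, CCND2 turned to -0.024 with one total, -0.048 with the aligned share and -0.017 with Ballgown's term, and CDK6 to 0.092 with the aligned share. In IMPA against SPA, CCND1 turned to -0.42, CCND2 to -0.26 and CDK4 to 0.027 with the aligned share. In IMA against SA, CCND1 turned to 0.012 with upper-quartile scaling and 0.36 with the aligned share, and CCND2 to -0.11 with Ballgown's term. In the interaction, CCND2 turned to 0.0082 with one total, 0.10 with the aligned share and 0.13 with Ballgown's term, and CDKN1B to -0.11 with Ballgown's term.

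Leaving out each library in turn, all genes called ranged from 6362 to 6878, 5441 to 5872, 8334 to 8536, 7964 to 8187 and 6054 to 6381 in the order IMA against IMPA, SA against SPA, IMPA against SPA, IMA against SA and interaction. The members called ranged from 6 to 7, 6 to 7, 7 to 10, 8 to 8 and 6 to 6. Signs turned for CCND2 in IMA against IMPA (-0.021 to 0.036), CCND3 in IMA against IMPA (-0.029 to 0.011), CCND1 in IMA against SA (-0.12 to 0.036) and CDKN1B in the interaction (-0.00086 to 0.072).

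Groups share replicate numbers, but 2 of 5 IMPA and IMA pairs and 1 of 5 SPA and SA pairs had deviations with a correlation over 0.1, and the numbers were not taken as pairs. In IMPA against IMA, 4 of 5 libraries correlated best with their own number, and in SPA against SA 0 of 5. With a replicate block, all genes called were 6826, 5602, 8530, 8059 and 6304 in the order above, and the 1 member call lost was CCND1 in IMPA against SPA (adjusted p = 0.0615).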

Other observations

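Housekeeping genes were no fixed reference for the 10 genes. Of 10, 6 were called lower and 1 higher in IMA against IMPA, where 40.2% of all genes were called lower and 19.9% higher. The median log2 difference was -0.22 against -0.09 for all genes. In SA against SPA 5 were called lower and 2 higher, where the shares of all genes were 26% and 26.1%. The median there was -0.15 against -0.01. ACTB, a cytoskeletal actin, fell from 626 ± 14.1 to 435 ± 26.1 FPKM in intramuscular and from 617 ± 40.2 to 415 ± 42.8 FPKM in subcutaneous cells (SD, n = 5). GUSB (-0.49) and TBP (-0.36) fell in IMA. In SA the glycolytic GAPDH fell (-0.42) and the prolyl isomerase PPIA rose (0.44). UXT, the reference gene of the study's qPCR, was at 15.9 ± 1.37, 13.6 ± 1.25, 12.4 ± 1.41 and 10.7 ± 0.944 FPKM in IMPA, IMA, SPA and SA, with limma adjusted p of 0.016 and 0.0442 for the stage comparisons.

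Other marker lists were read beside the skeletal muscle genes. Of 4 satellite cell markers tested, CDH15 (-0.56) and ITGA7 (-0.21) fell in IMA, while PAX7, the factor of muscle stem cells, was at 12.3 ± 2.13 FPKM in IMPA and 13.3 ± 1.55 in IMA. The fatty acid transporter CD36 rose in both depots, from 0.252 ± 0.125 to 4.91 ± 0.356 and from 0.0679 ± 0.0277 to 0.934 ± 0.36 FPKM, and CEBPA, a factor of fat cell differentiation, fell in both (-0.68 and -0.31). Of 7 fibroblast or stromal markers, 2 were called lower in IMA, and 5 lower and 1 higher in SA, where THY1 fell from 37.4 ± 2.18 to 15.6 ± 1.09 FPKM. Among all genes, 40.2% were called lower in IMA, and 26% lower and 26.1% higher in SA. Of 3 smooth muscle markers tested, ACTA2 and TAGLN fell and CNN1 rose in IMA, and ACTA2 rose in SA. Of the immune markers, CD68 and CD14 passed the filter, both higher in IMA, and CD68 lower in SA.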
